A study of Mus musculus with 6 samples.

Results

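The collagen chains described here were those outside types IV, XV and XVIII. They were taken by gene symbol: every symbol of the form Col, number, a, number, other than Col4a1 to Col4a6, Col15a1 and Col18a1. Of the 22026 gene symbols measured, 42 named a collagen chain, and 34 of these remained after the 8 chains of types IV, XV and XVIII were left out. The rule itself uses no measured value, but it was chosen with earlier results of these data known. Col6a3, the longest of the classic type VI chains, was not analysed here.

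RNA was sequenced from choroid endothelial cells (ECs), the cells that line the vessels behind the retinal pigment epithelium (RPE), of mice at postnatal day 5 (P5) and at postnatal day 30 (P30). Each age had 3 independent isolations, and each isolation pooled RPE/choroid tissue from 7 animals, so a value is the mean of a pool and not of 1 mouse. The P30 mice were male and female, and the sex of the P5 mice is not given in the sources used here. The study's methods name the strain of the P30 mice, and do not state whether the P5 mice were of the same strain. At both ages anti-VE-Cadherin antibody, which binds a junction protein of ECs, was injected before the eyes were taken, and labelled cells were then sorted, with no gate against other cells described. Levels are given as FPKM, sequenced fragments scaled to the length of the transcript and to the upper quartile of the library. Chains can therefore be compared with each other. Wherever 3 values are listed for an age, they stand in the order of replicates 1, 2 and 3. Read counts were not used here, so the depth behind each value is unknown and no counting error or detection floor is given.

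A collagen is built from 3 polypeptide chains wound into a triple helix, and the chain genes fall into classes by what the finished molecules assemble into. Fibrillar collagens form the striped fibrils that carry tension, and fibril-associated collagens sit on the surface of those fibrils. Network collagens form lattices (types VIII and X) or beaded filaments that tie basement membranes to fibrils (type VI), and transmembrane collagens stay anchored in the plasma membrane. Bruch's membrane, the layered matrix between the RPE and the choroid vessels, holds fibrillar collagen layers on both sides of an elastic layer, and the vessels themselves rest on a basement membrane made mainly of type IV collagen.

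Of the 34 chains, 21 averaged 5 FPKM or more at P5, at P30 or at both and were tested with limma, a linear model fitted here across all 12481 genes at that level, on the scale of log2(FPKM + 1). Col5a3, Col20a1, Col27a1 and Col6a6 reached that level through the P30 mean alone, which favours a rise. A gene was called at an adjusted p under 0.01 with at least a 2-fold difference in mean FPKM + 1. By this rule Col8a1, Col8a2 and Col6a2, all of the network class, were higher at P30, and no chain was higher at P5. Over all genes tested, 5.89% were called higher at P30 and 5.82% higher at P5. At an unadjusted p under 0.05, 9 chains had a higher level at P30 and 1 (Col5a2) at P5, against 20.7% and 28.8% of all genes tested. The 3 calls were close to the limit: the count was 0 without P5 replicate 1, 0 without P5 replicate 2, 1 without P5 replicate 3, 5 without P30 replicate 1, 1 without P30 replicate 2 and 2 without P30 replicate 3. A fit with the replicate number as a block also gave 0.

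**Figure D1:**
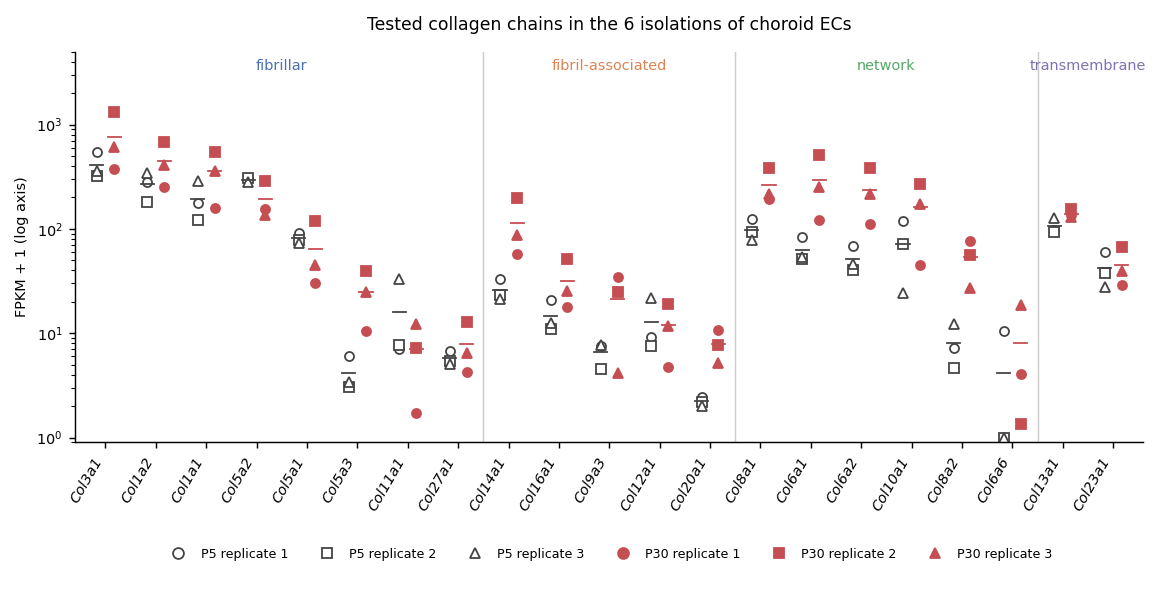
FPKM + 1 on a log axis for the 21 tested chains, grouped by class, with 1 symbol per isolation (open for P5, filled for P30) and a short line at the mean of each age. In 16 of the 21 chains the highest P30 isolation was replicate 2 (squares), and in 8 chains all P30 isolations lay above all P5 isolations.

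The ages did not overlap, with P30 the higher, in 8 of the 21 tested chains, against 22.0% of all genes tested. They did not overlap with P5 the higher in 0 of the 21, against 33.0% of all genes. The limma coefficient was above 0 in 17 chains and below 0 in 4, against 43.6% of all genes above 0. The 8 chains include Col5a3 and Col20a1, and the 17 include these and also Col27a1 and Col6a6. All of these reached the FPKM minimum through the P30 mean alone, which favours a rise. The median log2 difference, P30 minus P5, was 1.02 over the tested chains and -0.10 over all genes tested. Without the FPKM minimum, 33 chains could be fitted, all but Col6a4, and their median log2 difference was 0.58, against -0.05 over the 15773 genes fitted.

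Chain levels differed more between isolations than those of most genes. The median SD of log2(FPKM + 1) between isolations was 0.43 at P5 and 0.90 at P30 over the 21 chains, against 0.13 and 0.26 over all genes tested. P30 replicate 2 stood highest among the P30 isolations in 16 of the 21 chains, replicate 1 in 3 and replicate 3 in 2, against 46.1%, 30.0% and 23.9% of all genes tested. At P5 the highest was replicate 1 in 13 chains, replicate 2 in 1 and replicate 3 in 7, against 36.3%, 30.9% and 32.9% of all genes. The descending order replicate 2, 3, 1 was found in 14 of the 21 chains, against 25.9% of all genes. The median ratio of P30 replicate 2 to the mean of the other P30 isolations was 2.10 for the chains and 1.09 for all genes.

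Marker lists of other cells also varied between these isolations, and they differed in which P30 isolation was highest. The 10 endothelial markers, Plvap, Emcn and Cldn5 among them, had the highest sum of any list in every isolation, 21327 to 22747 FPKM at P5 and 30156 to 36454 at P30. In 6 of the 10 the ages did not overlap with P30 the higher, and 2 were called higher at P30. Cdh5, the VE-Cadherin gene, separated the ages with P5 the higher (means of 2971 and 1885 FPKM), and Pecam1, Tek and Erg overlapped. Over all genes tested, 22.0% separated the ages with P30 the higher and 33.0% with P5 the higher, and 5.89% were called higher at P30. The 7 pericyte markers summed to 1712, 894 and 468 FPKM at P5 and to 1841, 6228 and 3819 at P30, and all 7 were highest in P30 replicate 2 and in P5 replicate 1. In 4 of the 7 the ages did not overlap, with P30 the higher, and 1 passed both limits in limma. The 8 fibroblast markers summed to 225, 137 and 306 FPKM at P5 and to 1222, 2097 and 1200.0 at P30, with 7 of 8 separating the ages upward and 2 past both limits. The 2 were Dcn, which had the largest P30 mean of the list (1038 FPKM), and Pi16. Mfap5 overlapped between ages, with means of 29.1 FPKM at P5 and 26.4 at P30. Dpt, which encodes the matrix protein dermatopontin, was listed at 0 in every P5 isolation and had 2.47 to 7.07 FPKM at P30. The 6 smooth muscle markers summed to 85.4 to 175 FPKM at P5 and to 311 to 1083 at P30, all 6 separating the ages and 2 past both limits. The 7 RPE markers followed another order at P30, with sums of 3796, 2109 and 495 FPKM in replicates 1, 2 and 3 against 65.5 to 144 at P5, and all 7 were highest in replicate 1. All 7 separated the ages upward, and of the 6 tested 5 passed both limits, with a median log2 difference of 3.73. The part of these cells in any collagen level was not tested, and in bulk samples more cells of a type and more RNA per cell cannot be told apart.

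**Figure D2:**
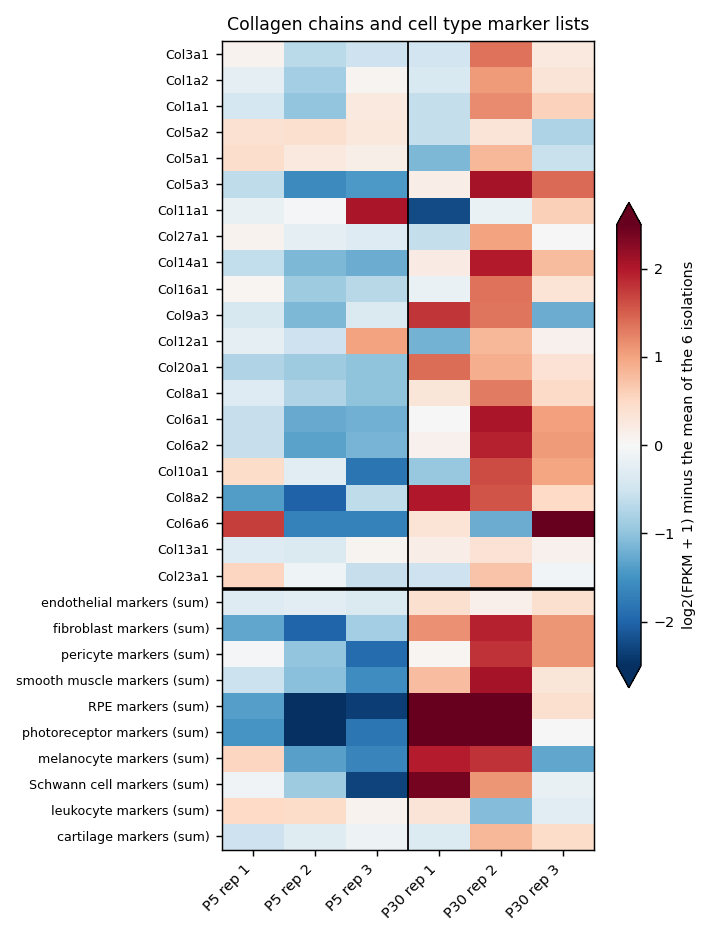
Colour gives log2(FPKM + 1) minus the mean of the 6 isolations, for each of the 21 tested chains (above the black line) and for the summed FPKM of each marker list (below it), in the 6 isolations. The colour scale stops at 2.5 in both directions. Col1a1, Col1a2, Col3a1, Col6a1 and Col6a2 are reddest in P30 replicate 2, as are the pericyte, fibroblast and smooth muscle sums, while Col8a2, Col9a3 and Col20a1 are reddest in P30 replicate 1.

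Markers of 5 further cell types were also measured. The 8 photoreceptor markers summed to 5.85 to 13.1 FPKM at P5 and to 38.0 to 356 at P30, with 5 of 8 separating the ages and 2 past both limits. Over all genes tested, 22.0% separated the ages with P30 the higher and 5.89% were called higher at P30. The 6 Schwann cell markers went from a range of 10.04 to 50.5 FPKM to one of 46.9 to 286, with 5 of 6 separating the ages and 0 past the limits, and the 6 melanocyte markers summed to 102 to 468 FPKM at P5 and to 132 to 1270.0 at P30, with 1 of 6 separating the ages and 0 past the limits. The 7 leukocyte markers summed to 802 to 1064 FPKM at P5 and to 359 to 948 at P30, and 2 of them were called higher at P5, beside 5.82% of all genes tested. The 8 cartilage markers had sums of 18.8 to 24.8 FPKM at P5 and of 21.2 to 49.8 at P30, with 1 of 8 separating the ages. The highest of them at P30 was Sox9, with means of 14.85 FPKM at P5 and 18.82 at P30. Next came Chad (1.50 and 7.47), which separated the ages, and Hapln1 (4.47 and 6.31). Acan, which encodes the cartilage proteoglycan aggrecan, was listed at 0 in every P5 isolation and reached at most 0.67 FPKM at P30. Matn1, a cartilage matrilin, was listed at 0 in all 6 isolations. Col2a1, the main fibril chain of cartilage, was at most 0.62 FPKM in any isolation.

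The network class had the 3 calls. Its 8 chains summed to 406.5, 256 and 209 FPKM at P5 and to 546, 1598 and 894 at P30, a ratio of age means of 3.49, with no overlap of the ages. Without P30 replicate 2 the ratio was 2.48. Of the 8 chains, 6 were tested, all 6 with a coefficient above 0, and their median log2 difference was 1.71.

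Col8a1 and Col8a2 encode the chains of type VIII collagen, which forms hexagonal lattices in the subendothelium of vessels and in Descemet's membrane of the cornea. Col8a1 (chromosome 16, 57624371 to 57754850 of mm9, minus strand) had an FPKM of 123, 91.6 and 76.8 at P5 and of 192, 379.8 and 215 at P30. The lowest P30 isolation was well above the highest P5 isolation, and the log2 difference was 1.38 (SE 0.28, adjusted p = 0.00809 from limma), a 2.61-fold rise. Col8a2 (chromosome 4, 125964037 to 125991574, plus strand) had 6.21, 3.68 and 11.2 FPKM at P5 and 75.6, 55.3 and 25.9 at P30. Here too the ages did not overlap, but the highest P30 isolation was replicate 1, not replicate 2, and the log2 difference was 2.71 (SE 0.47, adjusted p = 0.00452 from limma), a 6.56-fold rise. Over the 18 alternative fits the adjusted p from limma ran from 0.00426 to 0.0391 for Col8a1 and from 0.00275 to 0.019 for Col8a2. The call of Col8a1 was lost without any single P5 isolation and without P30 replicate 2 (log2 difference 1.08) or 3 (1.49), leaving 1.57, 1.36 and 1.23 without P5 replicates 1, 2 and 3. That of Col8a2 was lost without P5 replicate 1 (2.69) or 2 (2.38) and without P30 replicate 1 (2.39) or 2 (2.61).

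Col8a1 was the more abundant chain at both ages. The ratio of Col8a2 to Col8a1, with 1 added to each FPKM, was 0.058, 0.051 and 0.157 at P5 and 0.397, 0.148 and 0.124 at P30. The mean log2 ratio differed by 1.33 between ages, within the spread between isolations, since P5 replicate 3 was above P30 replicates 2 and 3 (exact two-sided permutation test, p = 0.3, 0.9 after adjustment over the 6 chain pairs compared).

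Type VI collagen was the other part of the network class that was high at P30. Col6a1 and Col6a2 lie next to each other on chromosome 10 of mm9, on the same strand, 85161 bases apart with 0 coding genes between them, and their products are joined in the same molecule. Col6a2 (76058507 to 76086375, minus strand) had an FPKM of 67.3, 39.4 and 44.7 at P5 and of 110, 386 and 213 at P30. No P30 isolation fell to the P5 range, and the log2 difference was 2.06 (SE 0.43, adjusted p = 0.00901 from limma), a 4.18-fold rise. Col6a1 (76171537 to 76188913, minus strand) had 82.5, 50.5 and 52.6 FPKM at P5 and 121, 508 and 251 at P30. Its isolations separated by age in the same way, at a log2 difference of 2.03 (SE 0.47), but its adjusted p of 0.0141 from limma missed the limit. The call of Col6a2 was lost without each isolation other than P30 replicate 1, at log2 differences between 1.62 and 2.29, and Col6a1 was called without P30 replicate 1 (log2 difference 2.55, adjusted p = 0.00311 from limma, of a range from 0.00311 to 0.0599 over 18 alternatives).

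The ratio of Col6a2 to Col6a1 was nearly the same in every isolation. It was 0.818, 0.784 and 0.851 at P5 and 0.907, 0.761 and 0.849 at P30. The log2 difference between ages was 0.03 (exact two-sided permutation test, p = 0.8, adjusted p = 0.96), although each chain varied widely among the P30 isolations. Of the 3 further type VI chains, Col6a6 had 9.58, 0 and 0 FPKM at P5 and 3.08, 0.35 and 17.7 at P30. It was highest in P30 replicate 3 and lowest in P30 replicate 2, against the order of Col6a1 and Col6a2, and its log2 difference of 1.09 had a 95% interval from -1.82 to 4.01. Col6a5 reached at most 1.62 FPKM, and Col6a4 was listed at 0 in all 6 isolations.

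Col10a1, the lattice-forming chain of hypertrophic cartilage, had an FPKM of 118, 70.5 and 23.3 at P5 and of 43.7, 268 and 170 at P30. The ages overlapped, the order of isolations at both ages was that of the pericyte sums, and the log2 difference of 1.11 had a 95% interval from -0.68 to 2.89 (adjusted p = 0.279 from limma). Its level was far above that of Col2a1 in every isolation. 18 bases of its exons overlap an exon of Nt5dc1 on the other strand in the mm9 annotation.

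The stretches before the annotated starts of 5 chains, chosen after their values were seen, are shown so that the called genes can be compared with Col6a1 and Col5a3. Each is the 250 bases before a start of transcription, 5′ to 3′ on the strand of the gene, from RefSeq on GRCm38.p6, a later build than the mm9 of the gene positions above. Capitals mark any match on either strand to TATAAA (a core promoter box), to CCAAT (the motif bound by nuclear factor Y) or to GGGCGG (the motif bound by Sp1).
Col8a1, chr16:57754738-57754987, minus strand: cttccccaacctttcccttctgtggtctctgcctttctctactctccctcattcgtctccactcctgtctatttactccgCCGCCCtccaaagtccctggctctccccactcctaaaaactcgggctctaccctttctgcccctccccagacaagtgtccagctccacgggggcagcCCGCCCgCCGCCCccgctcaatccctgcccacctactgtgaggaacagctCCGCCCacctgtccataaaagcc
Col8a2, chr4:126286544-126286793, plus strand: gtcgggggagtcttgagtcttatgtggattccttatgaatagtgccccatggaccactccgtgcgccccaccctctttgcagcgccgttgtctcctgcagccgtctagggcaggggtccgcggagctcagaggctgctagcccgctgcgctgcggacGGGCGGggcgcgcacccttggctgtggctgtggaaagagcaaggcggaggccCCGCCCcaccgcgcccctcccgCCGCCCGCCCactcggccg
Col6a2, chr10:76623405-76623654, minus strand: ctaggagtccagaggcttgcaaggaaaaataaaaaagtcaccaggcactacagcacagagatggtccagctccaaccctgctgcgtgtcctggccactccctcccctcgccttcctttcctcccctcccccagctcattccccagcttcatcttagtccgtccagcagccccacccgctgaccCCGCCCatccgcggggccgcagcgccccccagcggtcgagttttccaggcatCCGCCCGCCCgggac
Col6a1, chr10:76726045-76726294, minus strand: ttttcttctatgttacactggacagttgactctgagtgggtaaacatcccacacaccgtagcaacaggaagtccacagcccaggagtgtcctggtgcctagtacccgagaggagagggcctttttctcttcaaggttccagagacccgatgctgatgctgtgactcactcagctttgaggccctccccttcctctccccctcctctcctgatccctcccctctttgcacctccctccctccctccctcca
Col5a3, chr9:20815068-20815317, minus strand: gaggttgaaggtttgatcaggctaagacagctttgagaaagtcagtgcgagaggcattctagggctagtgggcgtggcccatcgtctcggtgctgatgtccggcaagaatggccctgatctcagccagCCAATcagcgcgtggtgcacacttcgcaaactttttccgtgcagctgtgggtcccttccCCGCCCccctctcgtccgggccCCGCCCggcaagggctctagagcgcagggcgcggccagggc

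GGGCGG or its reverse complement stood 4 times before Col8a1, 4 times before Col8a2 and 3 times before Col6a2, while neither TATAAA nor CCAAT was found in these 3 windows. Of 32851 windows of this length before RefSeq starts, 32.7% held GGGCGG, 33.8% CCAAT and 12.4% TATAAA. Of the 27 chains that had a window, 17 held GGGCGG, 9 CCAAT and 5 TATAAA. Before Col8a1 the matches to GGGCGG began 170, 73, 66 and 23 bases before the start, and before Col8a2 they began 93, 41, 19 and 15 bases before it. The window before the second annotated start of Col6a2 had 1 match. The window before Col6a1, whose FPKM followed that of Col6a2 in every isolation, held none of the 3 motifs, and that before Col5a3 held CCAAT 122 bases and GGGCGG 63 and 41 bases before the start. Col10a1 had TATAAA 32 bases before its start. A match to such short letters describes the window and is not a measured binding site.

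The fibrillar class held most of the collagen RNA outside types IV, XV and XVIII, and no member of it was called. Its 11 chains summed to 1415, 1019.8 and 1378 FPKM at P5 and to 982, 3006 and 1604 at P30. The lowest sum of the 6 was that of a P30 isolation, and the ratio of age means, 1.47, was 1.02 without P30 replicate 2. Of the 8 tested chains 5 had a coefficient above 0 and 3 below 0, with a median log2 difference of 0.48. At an unadjusted p under 0.05 in limma, 1 was higher at P30 (Col5a3) and 1 higher at P5 (Col5a2), beside 20.7% and 28.8% of all genes.

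**Figure D3:**
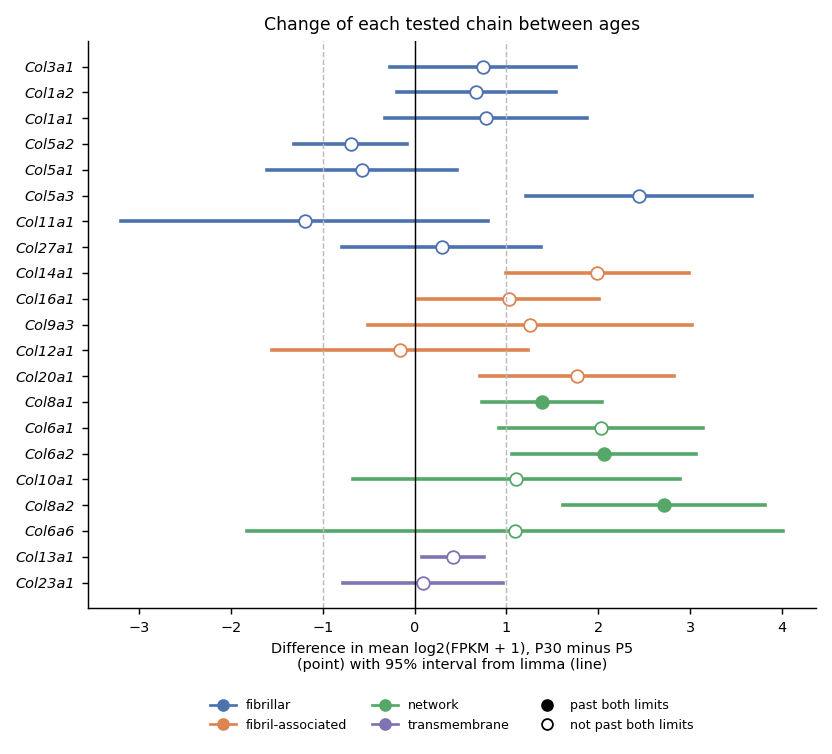
Difference in mean log2(FPKM + 1), P30 minus P5, for the 21 tested chains, with the 95% interval from limma; filled points passed both limits and dashed lines mark a 2-fold difference. The intervals of types I and III cross 0, and within type V, Col5a3 lies at 2.44 while Col5a1 and Col5a2 lie below 0.

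Col1a1 and Col1a2 encode the chains of type I collagen, and Col3a1 that of the type III collagen that joins it in vessel walls. By mean FPKM, these 3 were the most abundant of the 34 chains at P30. Col3a1 had an FPKM of 549, 320.5 and 357 at P5 and of 372, 1313 and 608 at P30. Col1a2 had 281, 181 and 343 at P5 and 253, 682 and 412 at P30, and Col1a1 had 176, 121 and 286 at P5 and 159, 544 and 359 at P30. In each of the 3, P30 replicate 1 lay within the P5 range and P30 replicates 2 and 3 above it. The log2 differences were 0.75 for Col3a1 (95% interval -0.27 to 1.76), 0.67 for Col1a2 (-0.20 to 1.54) and 0.78 for Col1a1 (-0.32 to 1.88), with adjusted p of 0.207, 0.187 and 0.222 from limma. These intervals leave room both for no change and for a rise of more than 2-fold. At P5, Col1a1 and Col1a2 were highest in replicate 3 and Col3a1 in replicate 1, and 5 of the 8 fibroblast markers were highest in P5 replicate 3. At P30, where these 3 chains were highest in replicate 2, 4 of the 8 fibroblast markers were highest in replicate 2, 3 in replicate 3 and 1 in replicate 1. The part of fibroblasts in these levels was not tested.

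The ratio of the type I chains differed little between ages. Col1a1 over Col1a2 was 0.627, 0.671 and 0.833 at P5 and 0.629, 0.798 and 0.873 at P30, a log2 difference of 0.11 (exact two-sided permutation test, p = 0.7, adjusted p = 0.96). Col3a1 over Col1a1 was 3.11, 2.63 and 1.25 at P5 and 2.34, 2.41 and 1.69 at P30, so that its lowest value was that of P5 replicate 3 (log2 difference -0.04, exact two-sided permutation test, p = 1.0, adjusted p = 1.0). Both ratios overlapped between ages.

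Type V collagen, which starts type I fibrils and limits their width, showed chains that differed in direction. Col5a2 had an FPKM of 299, 304 and 279 at P5 and of 152, 289 and 135 at P30. P30 replicates 1 and 3 were well below every P5 isolation while replicate 2 lay inside the P5 range, and the log2 difference was -0.69 (95% interval -1.31 to -0.08, adjusted p = 0.0722 from limma). Col5a1, its partner in the common form of the molecule, had 89.5, 78.0 and 72.9 FPKM at P5 and 29.5, 117 and 44.0 at P30, with the same 2 isolations low (log2 difference -0.57, 95% interval -1.60 to 0.46, adjusted p = 0.335 from limma). Without P30 replicate 2, both were called higher at P5, Col5a2 at a log2 difference of -1.03 (adjusted p = 0.0016) and Col5a1 at -1.12 (adjusted p = 0.0085 from limma), of ranges from 0.0016 to 0.17 and from 0.0085 to 0.772 over 18 alternatives.

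Col5a3, the chain of a rarer form of type V, had a difference of the other sign. It had 5.06, 2.09 and 2.45 FPKM at P5 and 9.47, 38.3 and 24.1 at P30, with no overlap of the ages. Its log2 difference was 2.44 (SE 0.52, 95% interval 1.21 to 3.67), and its adjusted p of 0.0103 from limma missed the limit. Without P30 replicate 1 it was called, at a log2 difference of 2.97 (adjusted p = 0.00299 from limma, of a range from 0.00299 to 0.0451 over 18 alternatives). The ratio of Col5a3 to Col5a1 was 0.067, 0.039 and 0.047 at P5 and 0.343, 0.334 and 0.557 at P30. The ratio differed 8.05-fold between ages, a log2 difference of 3.01 (p = 0.1 in the exact two-sided test over isolations, the least possible with 3 against 3, adjusted p = 0.6). This log2 difference was 2.22 with 5 added to each FPKM and 3.34 with 0.1 added, and the pair was compared only because Col5a3 reached the FPKM minimum through its P30 mean, which favours a rise. Col5a1 over Col5a2 was 0.301, 0.259 and 0.264 at P5 and 0.199, 0.407 and 0.331 at P30 (p = 0.7 in the exact two-sided permutation test, adjusted p = 0.96). Col3a1 and Col5a2 are neighbours on chromosome 1 of mm9, 24614 bases apart on opposite strands, and their coefficients had opposite signs.

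**Figure D4:**
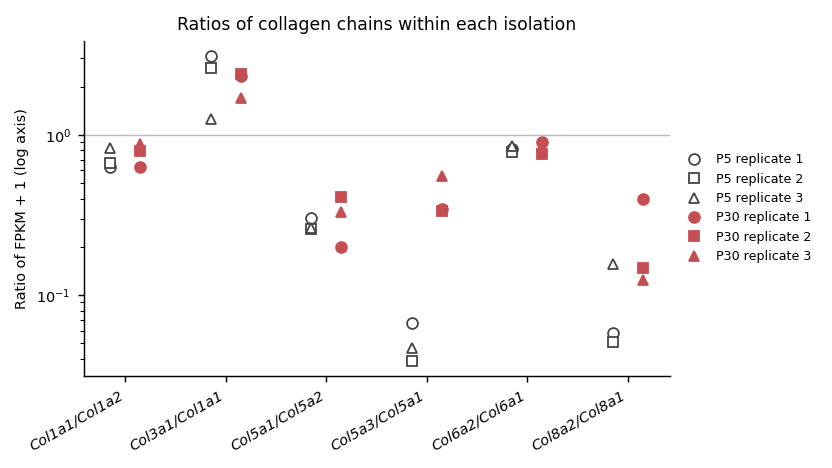
Ratio of FPKM + 1 of 2 chains within each isolation, on a log axis, for the 6 pairs with both chains at the FPKM minimum; open symbols are P5 and filled symbols P30. Only for Col5a3 over Col5a1, among these 6 pairs, do the ages not overlap (0.039 to 0.067 against 0.334 to 0.557).

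The other fibrillar chains were low. Col11a1, the cartilage counterpart of Col5a1, had an FPKM of 6.07, 6.74 and 31.9 at P5 and of 0.71, 6.19 and 11.2 at P30. Replicate 3 was the highest at both ages, and the log2 difference of -1.20 had a 95% interval from -3.20 to 0.80 (adjusted p = 0.297 from limma). Col27a1, a fibrillar chain with a short helix, had 5.79, 4.47 and 4.09 FPKM at P5 and 3.22, 11.8 and 5.42 at P30 (log2 difference 0.29, 95% interval -0.79 to 1.38, adjusted p = 0.641 from limma). Col11a2 was not tested, with 2.10, 1.55 and 0.98 FPKM at P5 and 2.95, 3.96 and 4.83 at P30, and Col24a1 and Col2a1 stayed at or below 1.04 FPKM.

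Fibril-associated collagens had a higher sum at P30, with no chain called in limma. The 9 chains summed to 70.4, 44.4 and 61.2 FPKM at P5 and to 123, 304 and 130.1 at P30, a ratio of age means of 3.17, which was 2.16 without P30 replicate 2. Of the 5 tested chains 4 had a coefficient above 0, with a median log2 difference of 1.25. Col14a1, which binds the surface of type I fibrils, had the highest mean of these chains at both ages, with 31.9, 22.1 and 20.4 FPKM at P5 and 56.9, 199 and 86.8 at P30. Its ages did not overlap, and its log2 difference of 1.99 (SE 0.42, adjusted p = 0.01003 from limma) lay just short of the limit. It was called in 7 of the 18 alternative fits, among them those without P30 replicate 1 (log2 difference 2.39) and without P30 replicate 2 (1.50), with adjusted p between 0.00316 and 0.0472 over all 18.

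Col12a1, close in structure to Col14a1, had a coefficient near 0. It had 8.15, 6.51 and 20.6 FPKM at P5 and 3.73, 18.3 and 10.7 at P30, the ages overlapping, and a log2 difference of -0.16 with a 95% interval from -1.55 to 1.24 (adjusted p = 0.849 from limma). The sign of this difference turned without P5 replicate 3 (0.30) and without P30 replicate 1 (0.40). Col16a1, found near basement membranes and fibrils, had 19.7, 9.91 and 11.4 FPKM at P5 and 16.9, 50.6 and 24.5 at P30. P30 replicate 1 lay below P5 replicate 1, and the log2 difference was 1.02 (95% interval 0.04 to 2.01, adjusted p = 0.091 from limma).

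Col20a1 and Col9a3 had P30 replicate 1 as their highest isolation, as did Col8a2. Col20a1 had 1.45, 1.21 and 1.03 FPKM at P5 and 9.73, 6.71 and 4.25 at P30. The ages did not overlap, at a log2 difference of 1.77 (SE 0.45, adjusted p = 0.0197 from limma). Col20a1 reached the FPKM minimum through its P30 mean alone, which favours a rise. Col9a3, a chain of the type IX collagen that coats cartilage fibrils, had 6.57, 3.56 and 6.71 FPKM at P5 and 33.4, 24.1 and 3.18 at P30. P30 replicate 3 was below every P5 isolation, and the log2 difference was 1.25 (95% interval -0.51 to 3.02, adjusted p = 0.222 from limma). Without P30 replicate 3 it was called, at 2.19 (adjusted p = 0.00471 from limma, of a range from 0.00471 to 0.503 over 18 alternatives). Col20a1, Col9a3 and Col8a2 had the P30 order replicate 1, 2, 3, as did the sums of the RPE, photoreceptor, melanocyte and Schwann cell lists. This order was found in 3 of the 21 tested chains, against 19.2% of all genes tested. The part of these cells in the 3 chains was not tested. In the mm9 annotation, 234 bases (6.07%) of the exons of Col9a3 are shared with Tcfl5 on the other strand, where reads of the 2 genes cannot be told apart without strand. Its partner chains Col9a1 and Col9a2 reached at most 1.81 and 2.30 FPKM, and Col19a1 and Col22a1 at most 0.31 and 2.92.

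The transmembrane class had no chain called. Its 4 chains summed to 161, 133 and 156 FPKM at P5 and to 168, 224 and 171 at P30, a ratio of age means of 1.25, with no overlap of the ages, and of 1.13 without P30 replicate 2. Col13a1, a membrane collagen known from cell adhesion sites and the neuromuscular junction, had 96.2, 92.6 and 125 FPKM at P5 and 135, 153 and 129 at P30. The ages were separated by a narrow margin, and the log2 difference of 0.42 (SE 0.14, 95% interval 0.08 to 0.75, adjusted p = 0.0557 from limma) lay under a 2-fold rise over its whole interval. Relative to their mean, its P30 isolations differed least among the 21 tested chains, with 129 to 153 FPKM. Col23a1, another membrane collagen, had 58.7, 37.0 and 26.7 FPKM at P5 and 27.8, 66.5 and 38.3 at P30, the ages overlapping (log2 difference 0.09, 95% interval -0.78 to 0.97, adjusted p = 0.857 from limma), and the sign turned without P5 replicate 3 (-0.17) or P30 replicate 2 (-0.24). Col25a1 had 5.77, 3.16 and 3.82 FPKM at P5 and 3.76, 2.62 and 3.40 at P30, and Col17a1, a hemidesmosome collagen of epithelia, at most 1.47.

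Outside these classes, Col7a1, the anchoring fibril collagen of epithelia, reached at most 2.36 FPKM. Col28a1, known from nerve sheaths, was the only one of the 34 chains whose ages did not overlap with P5 the higher, at 4.95, 4.26 and 3.92 against 2.67, 2.82 and 1.43 FPKM. It was below the FPKM minimum, and without that minimum its log2 difference was -0.72 (SE 0.31, adjusted p = 0.118 from limma). None of the 12 chains that could be fitted only without the minimum passed the limits there, and 10 of the 34 chains were listed at 0 in at least 1 isolation.

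Set against the basement membrane collagens, the other chains took a larger share of the collagen RNA at P30. Types IV, XV and XVIII together summed to 10097, 10632 and 10117 FPKM at P5 and to 4288, 5339 and 3599 at P30, with Col4a1, Col15a1 and Col18a1 called higher at P5 and the scarcer Col4a3 and Col4a4 called higher at P30. The 34 chains summed to 2059, 1457 and 1809 FPKM at P5 and to 1822, 5137 and 2801 at P30. The summed level overlapped between ages, but the share did not: the 34 chains made up 16.9%, 12.1% and 15.2% of all collagen FPKM at P5 and 29.8%, 49.0% and 43.8% at P30. Even P30 replicate 1, whose summed level was inside the P5 range, had a share well above every P5 isolation. Within the 34 chains, the fibrillar part went from 68.7%, 70.0% and 76.2% at P5 to 53.9%, 58.5% and 57.3% at P30, and the network part went from 19.7%, 17.5% and 11.5% to 29.9%, 31.1% and 31.9%. These shares are given with no test, as sums over a chosen set of genes.

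**Figure D5:**
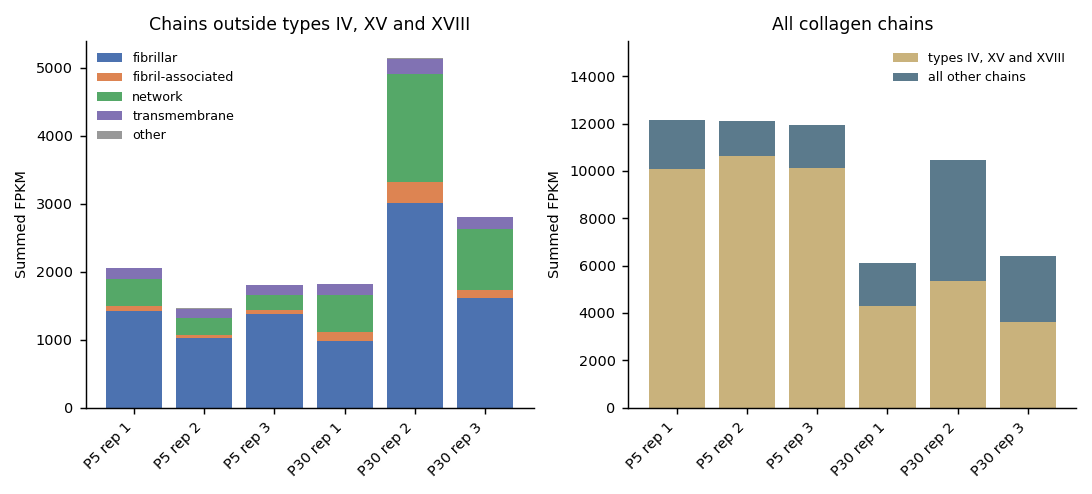
Left, summed FPKM of the 34 chains by class in each isolation; right, the same sums (blue-grey) stacked on those of types IV, XV and XVIII (sand). P30 replicate 2 has the largest sum of the 34 chains, 5137 FPKM, and in every P30 isolation the basement membrane part is below that of every P5 isolation.

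Before a collagen leaves the cell its chains are hydroxylated, glycosylated and folded, and outside the cell its end pieces are cut off and the fibrils are cross-linked. Of 40 genes for these steps and for collagen receptors, 34 were tested, of which limma called 3 with P30 the higher and 6 with P5 the higher, beside the 5.89% and 5.82% of all genes. Their median log2 difference was 0.06, against -0.10 for all genes. Among the 12 hydroxylation genes 1 was higher at each age, among the 5 of folding and glycosylation also 1 at each age, among the 8 of propeptide removal 1 at P30 and 2 at P5, among the 5 cross-linking genes 1 at P5, and among the 10 receptors 1 at P5.

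P4ha2 and P4ha3, alternative catalytic subunits of prolyl 4-hydroxylase, changed in opposite directions. P4ha2 rose from 15.3, 17.0 and 14.2 FPKM at P5 to 65.3, 45.9 and 39.1 at P30 (log2 difference 1.60, SE 0.21, adjusted p = 0.00164 from limma). P4ha3 had 9.61, 8.60 and 12.9 FPKM at P5 and was listed at 0 in all P30 isolations (adjusted p = 0.00154 from limma). Glt25d2 (now Colgalt2), which adds galactose to hydroxylysine, rose from 72.4, 71.4 and 58.9 to 145, 126 and 182 FPKM (log2 difference 1.14, SE 0.16, adjusted p = 0.00202 from limma), and Pcolce, an enhancer of propeptide removal, from 111, 80.0 and 130 to 199, 430.2 and 256 (log2 difference 1.41, SE 0.29, adjusted p = 0.00936 from limma). Pcolce had the P30 order of Col1a1 and Col6a2, whereas P4ha2 and Glt25d2 did not.

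Among the genes higher at P5, Itga2, the alpha subunit of an integrin that binds collagen, fell from 40.2, 43.0 and 45.2 FPKM to 3.65, 3.17 and 2.03 (log2 difference -3.49, SE 0.24, adjusted p = 0.000168 from limma). Loxl2, a lysyl oxidase that acts on basement membrane collagen, fell from 211, 190.2 and 204 to 87.7, 90.6 and 61.8 (log2 difference -1.34, SE 0.16, adjusted p = 0.000974 from limma). Fkbp10, a collagen chaperone of the endoplasmic reticulum, fell from 411, 418 and 365 to 169, 196 and 129 (log2 difference -1.29, SE 0.16, adjusted p = 0.00117 from limma), and Tll1, a propeptide protease, from 53.2, 40.8 and 60.7 to 17.4, 25.9 and 16.7 (log2 difference -1.33, SE 0.23, adjusted p = 0.00425 from limma). Itga2, Loxl2 and Fkbp10 were called in all 18 alternative fits. P4ha2 was not called without P5 replicate 3 and P4ha3 not without any single P5 isolation. Glt25d2 was not called without P5 replicate 2 or 3 or P30 replicate 3, and Tll1 was lost without any single isolation other than P30 replicate 2. Pcolce was called, of the fits that left out 1 isolation, in that without P30 replicate 1 alone. Over the 18 alternatives the log2 differences kept their sign, from 0.998 to 1.76 over P4ha2, Glt25d2 and Pcolce.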

How the data were processed

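Of the 6 samples, 3 isolations came from P5 and 3 from P30 mice, grouped by their titles. Per the methods, TopHat placed the reads on mm9, CuffLinks corrected for GC content and scaled to the upper quartile, and the authors deposited the resulting FPKM, 1 value per gene symbol and isolation. Versions of these 2 tools and the gene annotation are not given in the sources used here. CASAVA 1.8.2 is named in the submitters' processing notes. The authors tested read counts, which were not used here, so depth and counting error are unknown. Upper quartile scaling fixes levels relative to the other genes, not per cell. No 2 samples held identical values.

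From the deposited values, log2(FPKM + 1) was tested with limma 3.58.1 (lmFit, eBayes with a trend, no block) in R 4.3.3 over the 12481 genes that averaged 5 FPKM or more at either age, with Benjamini-Hochberg adjustment over all of them. The added 1, the limits (adjusted p under 0.01, 2-fold in mean FPKM + 1) and the value of the minimum are those of the study's methods, but the minimum was applied here before the fit and the adjustment, whereas the authors applied it to their lists after testing. A fold change on this scale understates that of low genes. Nothing in the sources says that isolations came from separate litters, so p-values measure the spread between pools. The fit was tested on simulated data. Chain ratios used exact permutation tests (scipy 1.17.1), with figures from matplotlib 3.10.9 in Python 3.11.15. Gene positions were read by symbol from GENCODE on mm9, and promoter sequences from RefSeq on GRCm38.p6 (27 of 34 chains matched).

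Every chain was accounted for, and those at the FPKM minimum were named with all values. Of the synthesis, processing, cross-linking and receptor genes, those past both limits were named, up to the 5 largest rises and falls. The members, classes and lists were chosen with earlier results of these data known. Alternatives were pseudocounts of 0.1 and 5, other minimum FPKM values, quantile and median-of-ratios scaling, no trend, array weights, a limit of 0.05, a fold limit on the coefficient, a replicate block, and each isolation left out in turn.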

Additional observations from a re-analysis of the deposited data

How the results depend on the processing

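The count of chains higher at P30, 3 as reported, was 1 with no FPKM minimum, 5 with quantile normalization, 6 with median-of-ratios rescaling, 1 with no trend, 6 with array weights and 7 at an adjusted p under 0.05, and it ran from 0 to 5 when each isolation was left out in turn. The count of chains higher at P5 was 0 in every fit but that without P30 replicate 2, where it was 2 (Col5a1 and Col5a2), a range from 0 to 2. In the fit with a block for the replicate number, the count higher at P30 was 0. Same-numbered isolations had deviations from their age means that correlated at -0.0618, -0.0905 and -0.0305 over all genes tested. A correlation over all genes cannot decide whether they shared a day or batch that moved only some genes. The block left 2 of the collagen pathway genes higher at P30 and 4 higher at P5.

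The count of pathway genes higher at P30, 3 as reported, was 5 with a pseudocount of 5, 6 with quantile normalization, 6 with median-of-ratios rescaling and 8 at an adjusted p under 0.05, and ran from 0 to 7 when isolations were left out in turn. The count higher at P5, 6 as reported, ran from 3 to 6 there. The log2 difference of Col12a1, -0.16 as reported, was 0.36 with array weights and ran from -0.62 to 0.40 when isolations were left out in turn (0.30 without P5 replicate 3, 0.40 without P30 replicate 1). That of Col23a1, 0.09 as reported, ran from -0.24 to 0.39 (-0.17 without P5 replicate 3, -0.24 without P30 replicate 2). Among chain ratios, the log2 difference of Col3a1 over Col1a1 ran from -0.43 to 0.23, that of Col6a2 over Col6a1 from -0.025 to 0.10 and that of Col5a1 over Col5a2 from -0.10 to 0.42 when isolations were left out, each crossing 0. Over 373 fits of single chains, 324 kept direction and side of the limits, 23 lost the call, 21 gained one and 5 changed sign. The cause was not tested. Without P30 replicate 2, Col27a1 fell below the minimum and gave no value. Depth is unknown, so what low FPKM values can show cannot be stated.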
